A study of Homo sapiens with 4 samples.

Results

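The genes described here drive cells through G1 and S phase, and were followed in fusion-negative rhabdomyosarcoma (FN-RMS) cells with and without SKP2. The set held 10 genes chosen by symbol: the D-type cyclins CCND1, CCND2 and CCND3, their kinases CDK4 and CDK6, the E-type cyclins CCNE1 and CCNE2, cyclin A2 (CCNA2), CDK2, and the phosphatase CDC25A. All 10 were found among the 39323 genes listed, and all 10 were among the 12985 genes tested, those whose TPM averaged at least 1 over the libraries. TPM is a unit that corrects read counts for gene length and scales each library to a fixed total. RNA came from RD and JR1, established FN-RMS lines that both carry mutated p53. Each line was infected with a lentiviral pLKO.1-puro vector that expressed either a hairpin against SKP2 (shSKP2.2) or a non-targeting hairpin (shSCR), so the controls were infected as well. The labels give the genotype of the shSCR cells as WT and that of the shSKP2.2 cells as SKP2 knockdown. No clone is named for the infected cells, 1 of the hairpins of the study was sequenced, and the time of RNA collection is not given in the sources used here. Each line gave 1 library of poly-A RNA for each hairpin, which makes 4. No difference below therefore has a replicate check, no test was run, and an effect of this hairpin on RNAs other than SKP2 cannot be told apart from the loss of SKP2.

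D-type cyclins are made in response to growth signals and activate CDK4 and CDK6, which begin to phosphorylate the retinoblastoma protein RB and so release E2F factors. Cyclins E and A then activate CDK2, which completes that step and drives DNA replication, and CDC25A removes the inhibitory phosphates from CDK2. In skeletal muscle precursors these kinases hold back differentiation, because leaving the cell cycle comes before the muscle program, and SKP2 belongs to the ubiquitin ligase that destroys inhibitors of CDK2. The values below are RNA levels, and they carry no information on protein stability or kinase activity.

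SKP2 itself was 92.8 TPM with shSCR and 7.40 TPM with shSKP2.2 in RD, and 46.5 TPM with shSCR and 2.72 TPM with shSKP2.2 in JR1. A change is the log2 ratio, shSKP2.2 over shSCR of a line, of TPM with 1 added to each value. On that scale SKP2 fell by 3.48 in RD and by 3.67 in JR1. Short structural RNAs such as RN7SL1 took 50.1% to 64.9% of the TPM, with a larger share in the shSKP2.2 library of each line (62.3% against 50.1% in RD, 64.9% against 57.1% in JR1). TPM sum to the same total in each library, so all other genes were scaled down with that share, and the median change of all genes tested was -0.27 in RD and -0.21 in JR1. Of the 9 skeletal muscle markers searched, 7 were at 1 TPM or more in each library, MYF5 was at 0 in all 4, and their summed level was 420 TPM with shSCR and 581 TPM with shSKP2.2 in RD, and 615 TPM with shSCR and 831 TPM with shSKP2.2 in JR1. CHRNA1 held most of the difference of these sums (196 to 314 TPM in RD, 284 to 425 TPM in JR1), while CHRND was lower with shSKP2.2 in both lines (17.2 to 9.76 TPM, 53.0 to 34.6 TPM) and DES in JR1 (51.3 to 36.0 TPM). The summed level of the 4 leukocyte markers was at most 0.86 TPM and that of the 4 epithelial markers at most 0.19 TPM, and of the endothelial markers TEK alone passed 1 TPM.

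After SKP2 depletion CCND1 and CDK2 fell in both lines, with TPM 3.01 to 3.63 times lower than in shSCR, and CCND2 fell in JR1. CDK6 was the member with the highest change in each line, 0.38 in RD and 0.49 in JR1. A member was called when its change reached 1 on the log2 scale, which is 2-fold on the TPM + 1 scale. In RD, 2 of the 10 members were called lower, CCND1 and CDK2, where 7.37% of all genes tested were called lower. In JR1, 3 of the 10 were called lower, CCND1, CCND2 and CDK2, against 9.05% of all genes tested. No member was called higher in RD, where 1.08% of the genes tested were, nor in JR1, where 1.78% were. The median change of the 10 members was -0.37 in RD and -0.30 in JR1, beside -0.27 and -0.21 for all genes tested. Changes below 0 were seen for 8 members in each line, and changes below the median of all genes tested for 7 members in RD and 6 in JR1. CCND1 and CDK2 lay apart from the other members in both lines.

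**Figure D1:**
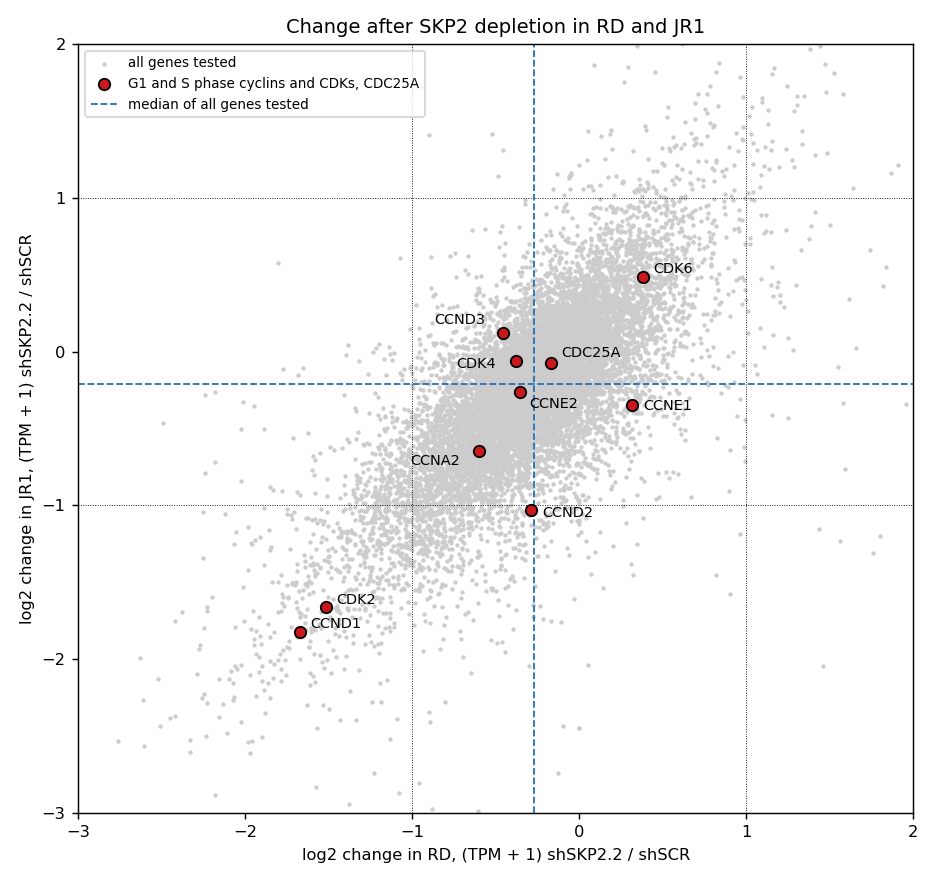
The horizontal axis is the log2 change of TPM + 1 after SKP2 depletion in RD and the vertical axis the same in JR1, with all 12985 genes tested in grey except 113 outside the axes, the 10 members in red, dashed lines at the median of all genes tested and dotted lines at a 2-fold change. CCND1 (-1.68 in RD, -1.82 in JR1) and CDK2 (-1.52, -1.66) sit at the lower left, CDK6 (0.38, 0.49) at the upper right, and CCNE1 (0.32, -0.35) and CCND3 (-0.46, 0.12) have opposite signs in the lines.

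CCND1 encodes cyclin D1, the D-type cyclin that is most often linked to growth factor and RAS signalling, and lies at chr11:69641156-69654474 (GRCh38, as are all gene spans given here, from the deposited files). Its level was 55.15 TPM with shSCR and 16.6 TPM with shSKP2.2 in RD, and 107 TPM with shSCR and 29.4 TPM with shSKP2.2 in JR1. Both shSKP2.2 libraries were below both shSCR libraries. The change was -1.68 in RD and -1.82 in JR1, a TPM 3.33 times lower in RD and 3.63 times lower in JR1. Of all genes tested, 1.36% had a lower change in RD and 1.39% in JR1.

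CCND2 encodes cyclin D2, which is expressed in proliferating myoblasts among other cells, and lies at chr12:4273762-4305353. Its level was 41.1 TPM with shSCR and 33.5 TPM with shSKP2.2 in RD, and 271 TPM with shSCR and 132 TPM with shSKP2.2 in JR1. The JR1 libraries were both far above the RD libraries. The change in JR1 was -1.03, at which 8.41% of the genes tested were lower, and it was -0.82 once the median of all genes tested was subtracted and -0.75 once the short structural RNAs were removed, both short of the limit of 1. In RD the change was -0.29, at which 48.2% of the genes tested were lower, and its sign turned with the scaling (0.11 after the removal of the short structural RNAs). The antisense gene CCND2-AS1, which overlaps CCND2 over 2423 bases, was at 0.77 TPM or less in the 4 libraries.

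CCND3 encodes cyclin D3, the D-type cyclin that rises when myoblasts leave the cell cycle, and lies at chr6:41934933-42048894. Its level was 217 TPM with shSCR and 158 TPM with shSKP2.2 in RD, and 129.6 TPM with shSCR and 141 TPM with shSKP2.2 in JR1. The shSKP2.2 library was the lower one in RD and the higher one in JR1. The changes, -0.46 in RD and 0.12 in JR1, were both under the limit. CCND3 therefore held the largest level of the D-type cyclins in RD in both conditions, and in JR1 in shSKP2.2.

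**Figure D2:**
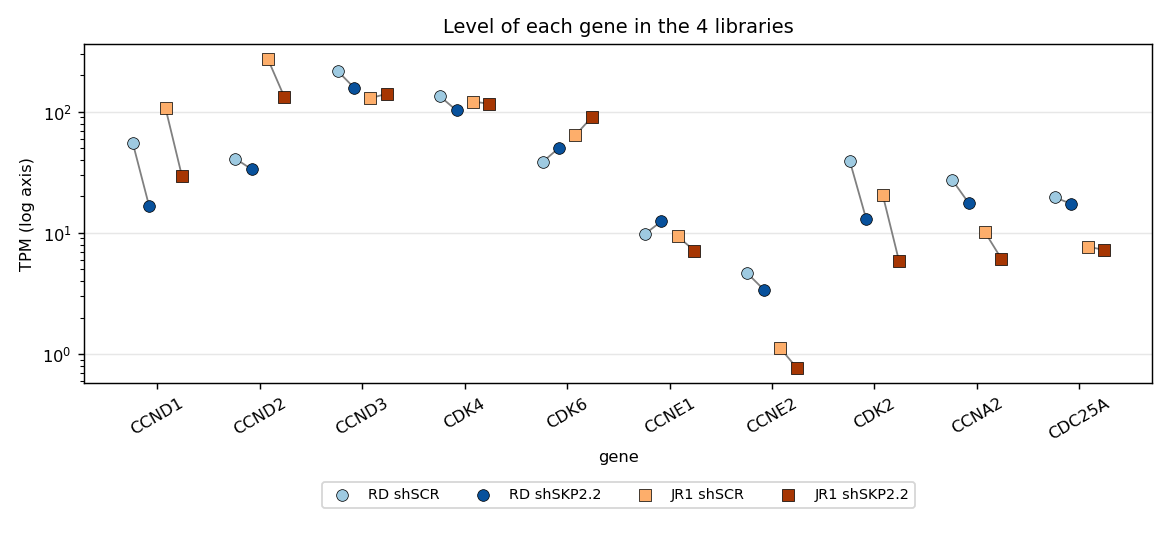
The vertical axis is TPM on a log scale and the horizontal axis lists the 10 genes, with circles for RD and squares for JR1, light symbols for shSCR and dark symbols for shSKP2.2, and a line joining the 2 libraries of a line. The steepest lines downward belong to CCND1 (55.15 to 16.6 TPM in RD, 107 to 29.4 TPM in JR1) and CDK2 (39.1 to 13.0 TPM, 20.7 to 5.86 TPM), and the JR1 symbols of CCND2 (271 and 132 TPM) stand above those of RD (41.1 and 33.5 TPM).

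Ratios between genes of 1 library do not depend on how the library was scaled, and TPM are per length, so shares of a summed TPM compare the RNA levels of related genes. The 3 D-type cyclins summed to 313 TPM with shSCR and 208 TPM with shSKP2.2 in RD, and 507 TPM with shSCR and 302 TPM with shSKP2.2 in JR1. CCND1 made up 17.6% of that sum with shSCR and 7.97% with shSKP2.2 in RD, and 21.0% with shSCR and 9.72% with shSKP2.2 in JR1. The share of CCND1 was thus lower in the shSKP2.2 library of each line. CCND3 made up 69.3% of the sum with shSCR and 75.9% with shSKP2.2 in RD, and 25.6% and 46.6% in JR1. The share of CCND2 was 13.1% and 16.1% in RD, and 53.4% and 43.7% in JR1, in shSCR and shSKP2.2 in that order. CCND3 thus led in RD in both conditions, while in JR1 the leading D-type cyclin was CCND2 in shSCR and CCND3, by a small margin over CCND2, in shSKP2.2.

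**Figure D3:**
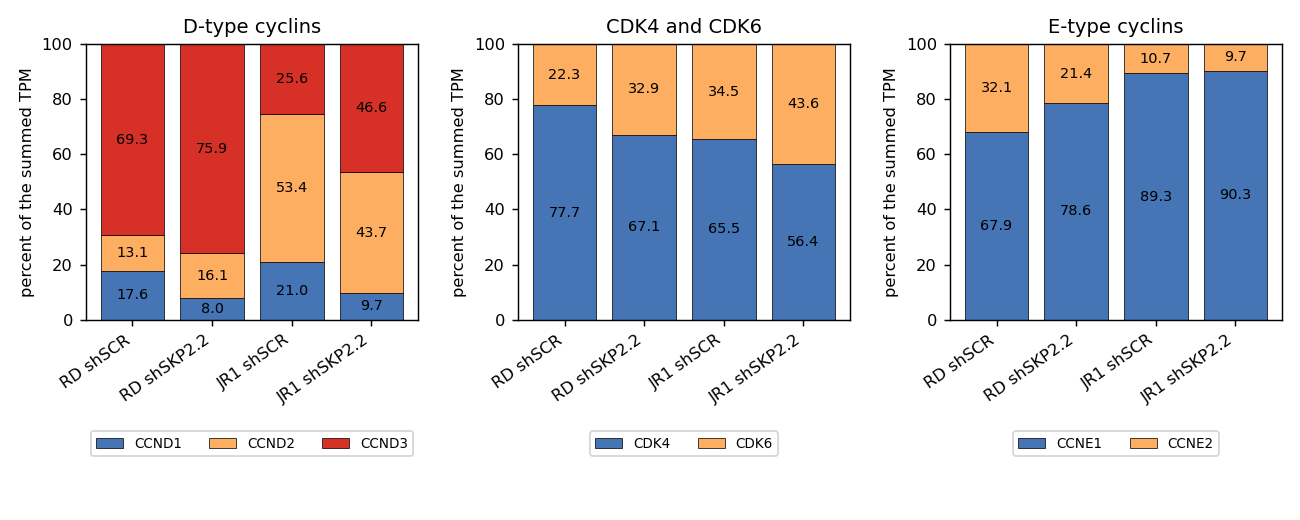
Each bar is 1 library and the vertical axis is the percent of the summed TPM taken by each D-type cyclin (left), by CDK4 and CDK6 (middle) and by each E-type cyclin (right). The CCND1 segment is smaller in shSKP2.2 than in shSCR in both lines, the CDK6 segment larger (32.9% against 22.3% in RD, 43.6% against 34.5% in JR1), and CCNE1 holds 67.9% to 90.3% of the E-type sum.

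CDK4 and CDK6, the kinases that D-type cyclins activate, did not reach the limit in either line. CDK4, at chr12:57747727-57752310, was 134 TPM with shSCR and 103 TPM with shSKP2.2 in RD, and 122 TPM with shSCR and 116 TPM with shSKP2.2 in JR1. Its 4 values spanned a narrow range, and its changes of -0.38 in RD and -0.06 in JR1 turned sign with the scaling (0.02 and 0.23 after the removal of the short structural RNAs). CDK4 overlaps TSPAN31 over 2493 bases, and TSPAN31 was between 5.66 and 7.34 TPM. CDK6, at chr7:92604921-92836573, was 38.45 TPM with shSCR and 50.3 TPM with shSKP2.2 in RD, and 64.0 TPM with shSCR and 90.1 TPM with shSKP2.2 in JR1. The shSKP2.2 library was the higher one in each line, and JR1 was above RD in each condition. The TPM ratio of shSKP2.2 over shSCR was 1.31 in RD and 1.41 in JR1, and 93.5% of the genes tested had a lower change in RD and 93.0% in JR1. The change of CDK6 was above 0 and under the limit of 1 in every scaling tried (0.38 to 0.80 in RD, 0.49 to 0.78 in JR1). Together the kinases summed to 172 TPM with shSCR and 153 TPM with shSKP2.2 in RD, and 186 TPM with shSCR and 207 TPM with shSKP2.2 in JR1, and the ratio of CDK4 to CDK6 was 3.48, 2.04, 1.90 and 1.29 in the same order.

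The promoter of CDK6 is shown with those of CCNA2 and CDC25A, because CDK6 had a change above 0 and CCNA2 a change below 0 in both lines, while the change of CDC25A lay near 0. RefSeq promoter windows (GRCh38.p14) were matched for 6 of the 10 members, CCND3, CCNE1, CCNA2, CDK4, CDK6 and CDC25A. CCND1, CCND2, CCNE2 and CDK2 were not matched. Each sequence runs 5′ to 3′ over the 250 bases before the start site of the gene, on the minus strand, and the capitals mark the letters of the motifs searched. The windows are chr7:92836574-92836823 for CDK6, which has 2 windows of which the outer is shown, chr4:121823884-121824133 for CCNA2 and chr3:48188418-48188667 for CDC25A.
CDK6: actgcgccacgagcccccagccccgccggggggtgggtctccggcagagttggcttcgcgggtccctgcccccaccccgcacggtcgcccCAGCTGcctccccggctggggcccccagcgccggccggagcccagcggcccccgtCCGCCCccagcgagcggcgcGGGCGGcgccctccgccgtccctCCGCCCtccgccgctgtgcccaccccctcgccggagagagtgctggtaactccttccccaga
CCNA2: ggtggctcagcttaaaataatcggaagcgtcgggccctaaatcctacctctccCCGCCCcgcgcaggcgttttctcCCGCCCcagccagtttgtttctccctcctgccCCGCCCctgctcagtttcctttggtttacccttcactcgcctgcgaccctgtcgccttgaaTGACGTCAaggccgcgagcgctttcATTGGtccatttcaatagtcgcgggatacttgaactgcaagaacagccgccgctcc
CDC25A: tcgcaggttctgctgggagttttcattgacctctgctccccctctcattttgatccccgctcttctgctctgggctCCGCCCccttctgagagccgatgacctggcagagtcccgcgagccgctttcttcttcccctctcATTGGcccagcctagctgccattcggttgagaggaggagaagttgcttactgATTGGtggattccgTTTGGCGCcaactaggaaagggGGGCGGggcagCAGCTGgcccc

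The motifs were searched on both strands of the window of 250 bases before to 50 after the start site, and the shares are of all 35116 windows of that length in the table. The E2F site was searched as TTTCCCGC, TTTGGCGC, TTTCGCGC and TTTGCCGC, which 3.31% of the windows hold, and the CHR element as TTTGAA and TTCGAA, which 16.4% hold. The cAMP response element TGACGTCA is in 1.85% of the windows, the CCAAT box in 34.6%, the GC box GGGCGG in 45.0% and the E-box CAGCTG, the form bound by MYOD, in 17.9%. The CDC25A window held TTTGGCGC with its first base at position -44 from the start site, the CCAAT box as its reverse complement at -110 and -58, GC boxes at -174 and -22, and the E-box at -11. The CCNA2 window held TGACGTCA at -81, the CCAAT box as its reverse complement at -56, and GC boxes at -197, -174 and -142. The CDK6 window shown held the E-box at -160 and GC boxes at -105, -85 and -62, and the other CDK6 window held none of the motifs. Matches in these windows did not overlap each other, and letters that match are a description of the window and not a bound site. CDC25A was the only member with the E2F letters among the 6 members with a window, letters that 3.99% of all genes with a window hold. CDC25A, CDK4 and CDK6 held the E-box letters, as did 21.1% of all genes with a window. None of the 6 held TTTGAA or TTCGAA, which 19.5% of those genes hold. Other forms of the E2F site and of the CHR element were not searched, so the absence of either from a window is not shown.

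CDK2 is the kinase that cyclins E and A activate, and lies at chr12:55966830-55972789. Its level was 39.1 TPM with shSCR and 13.0 TPM with shSKP2.2 in RD, and 20.7 TPM with shSCR and 5.86 TPM with shSKP2.2 in JR1. Both shSKP2.2 libraries were below both shSCR libraries. The change was -1.52 in RD and -1.66 in JR1, a TPM 3.01 times lower in RD and 3.54 times lower in JR1, and 1.99% of the genes tested had a lower change in RD and 2.05% in JR1. The ratio of CDK4 to CDK2 was 3.43 with shSCR and 7.90 with shSKP2.2 in RD, and 5.86 with shSCR and 19.9 with shSKP2.2 in JR1.

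CCNA2 encodes cyclin A2, which acts with CDK2 in S phase and with CDK1 later on, and lies at chr4:121816444-121823883. Its level was 27.3 TPM with shSCR and 17.65 TPM with shSKP2.2 in RD, and 10.1 TPM with shSCR and 6.10 TPM with shSKP2.2 in JR1. Its changes of -0.60 in RD and -0.64 in JR1 were under the limit and below 0 in every setting tried (-0.63 to -0.20 in RD, -0.72 to -0.42 in JR1), and 22.1% of the genes tested had a lower change in RD and 20.6% in JR1. Since CDK2 had the lower change, the ratio of CCNA2 to CDK2 was 0.699 with shSCR and 1.36 with shSKP2.2 in RD, and 0.487 with shSCR and 1.04 with shSKP2.2 in JR1. CCNA2 overlaps EXOSC9 over 578 bases, and EXOSC9 was 11.0 TPM with shSCR and 8.03 TPM with shSKP2.2 in RD, and 4.60 TPM with shSCR and 4.08 TPM with shSKP2.2 in JR1.

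The E-type cyclins, which open S phase with CDK2, were the members with the lowest levels in the control libraries of RD. CCNE1, at chr19:29811991-29824312, was 9.80 TPM with shSCR and 12.5 TPM with shSKP2.2 in RD, and 9.36 TPM with shSCR and 7.15 TPM with shSKP2.2 in JR1. The control libraries were close together, and the shSKP2.2 library was the higher one in RD and the lower one in JR1. Its change of 0.32 in RD and that of -0.35 in JR1 were under the limit, and 91.7% of the genes tested had a lower change in RD against 39.1% in JR1.

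CCNE2, at chr8:94880224-94896671, was 4.63 TPM with shSCR and 3.40 TPM with shSKP2.2 in RD, and 1.12 TPM with shSCR and 0.77 TPM with shSKP2.2 in JR1. It had the lowest level of the members in each library, and its changes were -0.36 in RD and -0.26 in JR1, and between -0.43 and -0.02 and between -0.49 and -0.05 over the settings tried. CCNE2 overlaps INTS8 over 14441 bases, and INTS8 was 9.31 TPM with shSCR and 4.63 TPM with shSKP2.2 in RD, and 10.05 TPM with shSCR and 4.06 TPM with shSKP2.2 in JR1. The library kit keeps the strand of the RNA, but the strand setting of the counting is not given in the sources used here, so the values of CCNE2 are uncertain. CCNE1 made up 67.9% of the E-type sum with shSCR and 78.6% with shSKP2.2 in RD, and 89.3% with shSCR and 90.3% with shSKP2.2 in JR1.

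CDC25A, at chr3:48157146-48188417, was 19.7 TPM with shSCR and 17.4 TPM with shSKP2.2 in RD, and 7.68 TPM with shSCR and 7.26 TPM with shSKP2.2 in JR1. The 2 libraries of a line were close together and the lines were apart. With -0.17 in RD and -0.07 in JR1, its change was small and turned sign once the median of all genes tested was subtracted (0.10 and 0.14).

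Ordered by level, CCND3 and CDK4 led the members in RD in both conditions, and CCNE1 and CCNE2 closed the order. In RD, CCND1 stood at place 3 of 10 in shSCR and at place 7 in shSKP2.2, CDK2 at place 5 and 8, and CDK6 at place 6 and 3. In JR1, CCND1 stood at place 4 in shSCR and 5 in shSKP2.2, CDK2 at place 6 and 9, and CDK6 at place 5 and 4. Neighbours with close levels, such as CCND2, CDK2 and CDK6 in RD shSCR (41.1, 39.1 and 38.45 TPM) or CCNA2, CDC25A and CCND1 in RD shSKP2.2 (17.65, 17.4 and 16.6 TPM), cannot be put in order with 1 library each. Among all genes tested, 97.9% had a lower level than CCND3 in RD shSCR and 98.7% a lower level than CCND2 in JR1 shSCR. For CDK2 the share of genes with a lower level was 83.9% with shSCR and 62.5% with shSKP2.2 in RD, and 73.7% with shSCR and 42.4% with shSKP2.2 in JR1. The 10 members summed to 586 TPM with shSCR and 425 TPM with shSKP2.2 in RD, and 742 TPM with shSCR and 536 TPM with shSKP2.2 in JR1.

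The lines differed in the members as well. CCND2 was higher in JR1 than in RD, and CCNE2, CCNA2 and CDC25A were lower, in both conditions. In shSCR the difference, the log2 ratio of JR1 over RD with 1 added to each TPM, was 2.69 for CCND2, a TPM 6.59 times higher, and in shSKP2.2 it was 1.95, a TPM 3.94 times higher. The difference of CCND2 was above that of 99.7% of the genes tested in shSCR and of 99.4% in shSKP2.2. CCND2 was the 1 member of 10 called higher in JR1 in shSCR, where 3.45% of the genes tested were, and in shSKP2.2, where 2.7% were. Called lower in JR1 were 3 of 10 members in shSCR, against 6.5% of the genes tested, and 4 of 10 in shSKP2.2, against 5.39%. At a limit of 1.5-fold, 5 of 10 were lower in shSCR (20.4% of genes) and 3 higher (7.02%), and 3 were higher in shSKP2.2 (5.8%). After centring, 2 of 10 were called higher in shSCR (5.06%) and 2 lower in shSKP2.2 (3.54%). Higher in shSCR were 2 of 10 without the short structural RNAs (5.72%) and 3 without RMRP, RPPH1 and transfer RNAs as well (7%).

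CCNA2 differed by -1.35 in shSCR and -1.39 in shSKP2.2, CDC25A by -1.25 and -1.15 (-0.98 in shSKP2.2, short of the limit, once the median of all genes tested was subtracted), and CCNE2 by -1.41 and -1.31. CDK2 differed by -0.88 in shSCR and -1.03 in shSKP2.2, where it was called, though not once the median of all genes tested was subtracted (-0.86). CCND1 differed by 0.94 in shSCR and 0.79 in shSKP2.2, and in shSCR it passed the limit after the short structural RNAs were removed (1.16). CDK6 differed by 0.72 and 0.83, CCND3 by -0.74 and -0.16, CCNE1 by -0.06 and -0.72, and CDK4 by -0.14 in shSCR and 0.18 in shSKP2.2. The control cells of JR1 thus had more CCND2 RNA, and those of RD more CCNA2 and CDC25A RNA, as TPM. CCNE2 was lower in JR1 too, but its values are uncertain, as said above. Lower levels in JR1 shSCR were not particular to the members. Of 20 E2F target genes of DNA replication, a list read below, 17 were called lower there, against 6.5% of the genes tested. The median of that list was -1.26, or -1.07 without the short structural RNAs. In bulk RNA of this kind fewer cells in a phase and less RNA per cell cannot be told apart, and differences of culture between the lines cannot be told apart from the lines. The median difference of the 10 members was -0.44 in both conditions, beside -0.23 in shSCR and -0.17 in shSKP2.2 for all genes tested.

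The short structural RNAs moved with SKP2 depletion in both lines, so the changes were also computed without them, with the remaining genes rescaled to the same total. In RD, 2 of 10 members were then called lower against 3.41% of the 14712 genes tested, and none was called higher against 3.76%. In JR1, 2 of 10 were called lower against 6.71%, and none was called higher against 4.69%. The called members were CCND1 (-1.31 in RD, -1.56 in JR1) and CDK2 (-1.16, -1.48) in each line. CCND1 and CDK2 also stayed past the limit with the median of all genes tested subtracted (-1.41 and -1.61 for CCND1, -1.25 and -1.45 for CDK2). The median change of the 10 members without the short structural RNAs was -0.01 in RD and -0.14 in JR1, beside 0.10 and 0.03 for all genes tested. The part of the larger short structural RNA share in these changes, beyond the rescaling itself, was not tested.

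**Figure D4:**
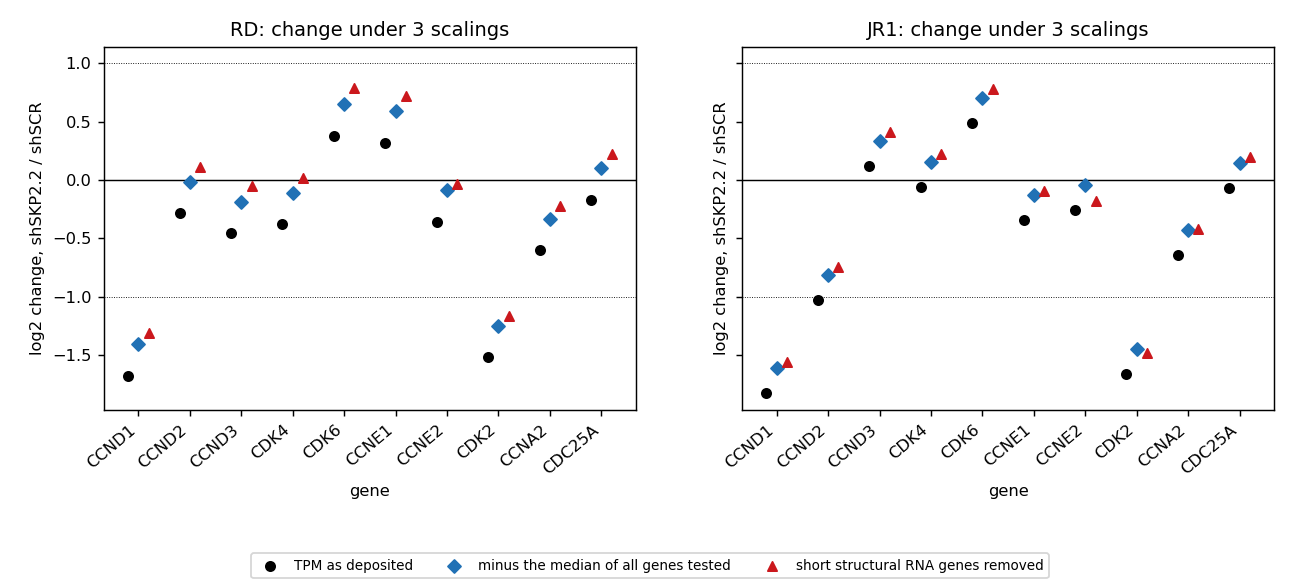
The vertical axis is the log2 change after SKP2 depletion of each of the 10 genes in RD (left) and JR1 (right), from TPM as deposited (black circles), minus the median of all genes tested (blue diamonds) and after removal of the short structural RNA genes (red triangles), with dotted lines at a 2-fold change. CCND1 and CDK2 lie below the lower dotted line under all 3 scalings in both lines and CCND2 in JR1 only as deposited, CDK6 lies above 0 throughout, and CDK4 and CDC25A in both lines and CCND2 in RD change sign with the scaling.

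The partners of these genes were read from 8 further lists. The counts below stand beside the shares of all genes tested. As deposited, 7.37% were called lower in RD and 9.05% in JR1, and 1.08% and 1.78% higher. Without the short structural RNAs, 3.41% were called lower in RD and 6.71% in JR1, and 3.76% and 4.69% higher. Of 7 CDK inhibitors, 1 was called higher in RD, CDKN1A (p21), at 90.3 TPM in shSCR and 201 TPM in shSKP2.2, a change of 1.15. In JR1 CDKN1A was 111 TPM in shSCR and 191 TPM in shSKP2.2, a change of 0.78 that was under the limit, and no inhibitor was called there in either direction. Without the short structural RNAs CDKN1A was past the limit in both lines (1.55 in RD, 1.07 in JR1), and with centring in RD (1.42) but not in JR1 (0.99). CDKN2C, an inhibitor of CDK4 and CDK6, was called lower in RD (-1.02, though -0.64 without the short structural RNAs) and had the lowest change of the list in JR1 (-0.64). CDKN1B (p27), an inhibitor that SKP2 marks for destruction, was 15.6 TPM with shSCR and 11.1 TPM with shSKP2.2 in RD, and 11.15 TPM with shSCR and 9.53 TPM with shSKP2.2 in JR1, changes of -0.46 and, with a sign that turned under centring (0.01), -0.21. The study reports the protein of CDKN1C (p57) as a direct target of SKP2 too. CDKN1C was 4.32 TPM with shSCR and 2.86 TPM with shSKP2.2 in RD, and 2.17 TPM with shSCR and 3.57 TPM with shSKP2.2 in JR1, changes of -0.46 and 0.53. The CDK2 inhibitor genes differed among themselves, with CDKN1A above 0 in both lines, CDKN1B below 0 as deposited and CDKN1C on either side of 0. The median of all 7 CDK inhibitors was -0.24 in RD and -0.21 in JR1. That median turned sign with centring (0.03, 0.0077) and without the short structural RNAs (0.15, 0.06).

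Among the E2F target genes of DNA replication, 8 of 20 were called lower in RD, against 7.37% of all genes tested. In JR1, 5 of 20 were called lower, against 9.05%, and none was called higher in either line. All 20 had changes below 0 in each line, as had 75.0% of all genes tested in RD and 68.9% in JR1. Below the median of all genes tested were 20 in RD and 19 in JR1. Without the short structural RNAs 4 were called lower in each line, against 3.41% of the genes tested in RD and 6.71% in JR1. The median of the list was -0.92 for RD and -0.65 for JR1, or -0.56 and -0.43 without the short structural RNAs. MCM5, a subunit of the replicative helicase (-1.32 in RD, -1.29 in JR1), CDC6, which loads it (-1.03, -1.34), and the nucleotide synthesis genes TYMS (-1.40, -1.29) and TK1 (-1.13, -1.38) were among those called in both lines. CDC6 and TK1 lost the call in RD with centring (-0.76, -0.86) and, together with MCM5 (-0.95), without the short structural RNAs (-0.66, -0.74). The highest changes of the list were those of ORC1 in RD (-0.43) and GINS2 in JR1 (-0.07). Of 13 RB and E2F factors, 1 was called lower in each line, the pocket protein gene RBL2 (-1.43 in RD, -1.17 in JR1). That count was near the share of all genes tested that were called lower. TFDP2, a dimerization partner of E2F factors, had the highest change (0.36, 0.51). RBL2 passed the limit without the short structural RNAs (-1.16, -1.02), and with centring in RD (-1.16) but not in JR1 (-0.95). That list had a median of -0.45 for RD and -0.42 for JR1, or -0.12 and -0.21 without the short structural RNAs.

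Of 8 genes of G2 and M phase, 2 were called lower in RD (7.37% of all genes tested) and 4 in JR1 (9.05%). Their median was -0.54 for RD and -1.10 for JR1, or -0.15 and -0.84 without the short structural RNAs. Without the short structural RNAs 0 were called in RD and 2 in JR1, CDK1 and CKS1B. With centring the median of the list was -0.27 in RD and -0.89 in JR1. CDK1 (-0.91) and CDC25B (-0.77) lost the call in RD with centring, while the calls in JR1 were kept. CDK1, the mitotic kinase, was 26.9 TPM with shSCR and 11.3 TPM with shSKP2.2 in RD, and 13.0 TPM with shSCR and 4.10 TPM with shSKP2.2 in JR1, changes of -1.18 and -1.46. CDC25B, the phosphatase that starts its activation, was called in both lines (-1.04, -1.25), and CKS1B (-1.33) and CKS2 (-1.23) were called in JR1. The highest changes of the list were those of CCNB2 in RD (-0.15) and CCNF in JR1 (-0.58). Of 5 genes of the CDK-activating kinase and of the kinases that inhibit CDKs, WEE1, which inhibits CDK1 and CDK2, was called lower in both lines (-1.003, -1.25) and PKMYT1 in RD (-1.14), while without the short structural RNAs only WEE1 in JR1 was (-1.06). The list had a median of -0.40 for RD and -0.55 for JR1, or -0.02 and -0.30 without the short structural RNAs. The highest changes there belonged to CDK7 in RD (-0.04) and MNAT1 in JR1 (-0.06), both parts of the activating kinase.

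Of 13 CDKs and cyclins that act in transcription, none was called in either line. Their median of -0.17 for RD and -0.06 for JR1 turned sign without the short structural RNAs (0.22, 0.21), with CDK9 lowest (-0.71, -0.76), CCNC highest in RD (0.23) and CCNK highest in JR1 (0.39). Of 11 parts of ubiquitin ligases that act on these cyclins and inhibitors, SKP2 was called in both lines and its cofactor CKS1B, which is also in the list of G2 and M phase, in JR1. The highest changes were those of FBXO31 in RD (0.35), which marks cyclin D1 for destruction, and FBXW7 in JR1 (0.43), which does so for cyclin E, and the list had a median of -0.45 for RD and -0.23 for JR1, or -0.07 and 0.01 without the short structural RNAs. Of 15 other cyclins and CDKs, 14 were tested, all but CCNA1. CCNG1 (-1.97, -2.10) and CDK10 (-1.09, -1.17) were called lower in both lines, against 7.37% of all genes tested in RD and 9.05% in JR1. Without the short structural RNAs CDK10 was no longer called (-0.76, -0.98). CCNG1, a p53 target, was 26.2 TPM with shSCR and 5.94 TPM with shSKP2.2 in RD, and 23.9 TPM with shSCR and 4.80 TPM with shSKP2.2 in JR1, a change lower than those of CCND1 and CDK2. Here the list median was -0.36 for RD and -0.20 for JR1 (0.02 and 0.06 without the short structural RNAs), and the highest changes were those of CDK20 in RD (0.08) and CCNI in JR1 (0.32).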

How the data were processed

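The authors extracted total RNA from RD and JR1 cells, made directional poly-A libraries, read them as pairs of 150 bases, and, per the submitters' processing notes, used STAR 2.7.9a and RSEM 1.3.2 with the build GRCh38. They deposited 1 TPM value per gene and library, and TPM were used as deposited. The annotation release and the strand setting of the counting are not given in the sources used here. Read counts cannot be recovered from TPM, so depth is not known and no counting error can be given.

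Changes were log2 ratios of TPM + 1, where the added 1 understates the change of low genes. A gene was tested where its TPM averaged at least 1 over the 4 libraries, and a change of at least 1 on the log2 scale was called. With 1 library per line and condition no test was run and no p-value is given. The members and lists were chosen with earlier results of these data known. Named are the 10 members, SKP2, each list's highest and lowest gene, members called in both lines, CDKN1A, CDKN1B, CDKN1C and genes that overlap a member, except 1 item that is not reported here. PKMYT1, CKS1B and CKS2, called in 1 line, CDC25C and RN7SL1 were chosen after their values were seen. So were the muscle markers CHRNA1, CHRND, DES, MYOG, MYOD1, CDH15, MYMK and MYF6.

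Alternatives were a pseudocount of 0.1 TPM, centring on the median of all genes tested, removal of 2634 short structural RNA genes by symbol with or without RMRP, RPPH1 and transfer RNA genes, a limit of 1.5-fold, a minimum mean of 5 TPM or no filter, and leaving out each member. The motifs other than the E2F site and the CHR element were added after the data were seen. Promoter windows came from RefSeq (GRCh38.p14). The changes, the call and the removal of the short structural RNAs were tested on simulated data, with changes past the limit planted in genes of high level. Changes near the limit, low genes and the other steps were not tested in that way. Python 3.11.15, numpy 2.4.6, pandas 2.3.3 and matplotlib 3.10.9 were used.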

Additional observations from a re-analysis of the deposited data

Results flagged for a closer look

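CCND3 and CCNE1 moved in opposite directions in RD and JR1 after SKP2 depletion. For CCND3 the change in RD minus the change in JR1 was -0.58 on the log2 scale, with -0.46 in RD and 0.12 in JR1. For CCNE1 the change in RD minus the change in JR1 was 0.66, with 0.32 in RD and -0.35 in JR1. Neither change reached the limit of 1 in either line, and with 1 library per line and condition the difference between the lines was not tested. The signs of both genes in both lines were kept in the scalings tried, in which CCND3 lay between -0.46 and -0.04 in RD and between 0.12 and 0.41 in JR1, and CCNE1 between 0.32 and 0.74 in RD and between -0.38 and -0.09 in JR1.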

How the results depend on the processing

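Calls of CCND1 and CDK2 after SKP2 depletion were made in both lines under each pseudocount and scaling tried, and no called value changed sign. The call of CCND2 in JR1 (-1.03) was lost with centring (-0.82), without the short structural RNAs (-0.75) and without RMRP, RPPH1 and transfer RNAs as well (-0.77). The median change of the members in RD (-0.37) was -0.10 with centring, -0.0081 without the short structural RNAs and 0.00863 without RMRP, RPPH1 and transfer RNAs as well. In JR1 (-0.30) it was -0.44 with a pseudocount of 0.1 TPM, -0.089 with centring, -0.14 without the short structural RNAs and -0.16 without RMRP, RPPH1 and transfer RNAs as well.

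For JR1 over RD in shSCR, 5 members were lower (3 in the report) and 3 higher (1 in the report) at a limit of 1.5-fold, which 20.4% and 7.02% of all genes tested passed. With centring 2 were higher (5.06% of genes), without the short structural RNAs 2 (5.72%), and without RMRP, RPPH1 and transfer RNAs as well 3 (7%). The median there (-0.44) was -0.21 with centring, -0.22 without the short structural RNAs, -0.14 without RMRP, RPPH1 and transfer RNAs as well, -0.14 at a minimum mean of 5 TPM, which drops CCNE2, and between -0.74 and -0.14 with 1 member left out. For JR1 over RD in shSKP2.2, 2 members were lower with centring (4 in the report), as were 3.54% of genes, and 3 higher at 1.5-fold (1 in the report), as were 5.8%, and the median (-0.44) was -0.27 with centring, -0.33 without RMRP, RPPH1 and transfer RNAs as well, -0.16 at 5 TPM and between -0.72 and -0.16 with 1 member left out. The other 63 such values kept their median within 0.1 or their count within 1.5 times. Of the values of single genes and of the other lists, 562 kept their call or stayed within these bounds, 220 moved by more or changed sign without a call, 8 came past the limit and 10 lost it. No paired analysis was possible because each line and condition has 1 library, and for the same reason no replicate could be left out. What sequencing depth limits cannot be stated, since TPM keep no depth, and the cause of these shifts beyond the rescaling itself was not tested.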
